A study of Mus musculus with 3 samples.

Results

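T_cell_3 was a cluster of 1036 cells among 20266 immune cells of the mouse kidney, taken here as every cell that the deposited annotation names T_cell_3. It was compared with the other numbered T cell clusters of the same table, T_cell_1 with 2375 cells, T_cell_2 with 1664 cells and T_cell_4 with 161 cells. The cells came from untouched wild-type male C57BL/6J mice, 10 weeks old, whose perfused kidneys were cut by hand into the cortex and the outer (OM) and inner (IM) part of the medulla. The pieces were digested with enzymes, live CD45+ cells (CD45 is the surface protein shared by leukocytes) were sorted, and RNA was counted in droplets on the 10x Genomics platform. Aachen, Bonn and Hamburg each provided cells of all 3 compartments, and the cells of 1 compartment in 1 facility are called a library here, which gave 9 libraries, 3 for each compartment. The cell barcodes carried 2 different suffixes in each compartment of Aachen, 1 in each of Bonn, and the same 1 in all compartments of Hamburg, so a library of this kind need not be 1 droplet run. The number of mice behind each library is not given in the sources used here. The p-values thus measure how far differences between compartments vary from facility to facility, and not between mice.

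T cells that have not yet met their antigen are called naive. They travel between blood and lymph nodes, which they enter with the help of the chemokine receptor CCR7 and leave with the sphingosine phosphate receptor S1PR1, whose gene is switched on by KLF2. The transcription factors TCF1 (Tcf7) and LEF1 keep this resting program, the IL-7 receptor sustains survival, and T cells that have been activated and settle in tissue lose these transcripts and gain others such as Cxcr6, Itga1 and effector genes.

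T_cell_3 held 40, 89 and 75 cells in cortex, OM and IM of Aachen, 268, 23 and 52 of Bonn, and 172, 133 and 184 of Hamburg. The summed counts of the cluster ran from 67024 to 1199687 UMIs (unique molecular identifiers, 1 per captured RNA molecule) per library, and the median cell had 1160 UMIs in Aachen, 4194 UMIs for Bonn and 4115 UMIs for Hamburg. Aachen also differed in which genes were counted at all: 682 genes had no UMI in any Aachen cell and at least 100 in both other facilities, among them 26 T cell receptor variable genes and the receptor constant genes Trac and Trbc2, and 250 genes showed the reverse. Facility and the table of counted genes cannot be told apart. Between any pair of libraries 0 to 16 cell barcodes were shared, and at most 1 of them belonged to T_cell_3 in both.

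The label was checked against markers of T cells, which were present. A UMI of Cd3e, a chain of the CD3 signalling complex, was found in 79.7% of T_cell_3 cells (exact 95% binomial interval 77.2 to 82.1) against 1.68% of B cells and 1.45% of macrophages. For Cd3d, another CD3 chain, the share was 84.5% against 2.25% and 2.03%. These intervals, and all others on shares of cells, cover counting error only. Cells were then thinned to 500 UMIs so that depth could not set the share. Cells with fewer UMIs were left out, 13 of T_cell_3 and 199 B cells. A UMI of Cd3e was kept in 28.3% of T_cell_3 cells and 0.385% of B cells. T_cell_3 was the lowest of the T clusters here, against 40.3%, 37.8% and 41.8% in T_cell_1, T_cell_2 and T_cell_4.

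T_cell_3 carried the transcripts of recirculating T cells. Of the 12 genes of the naive and circulating list, 11 had a higher mean level in T_cell_3 than in each of T_cell_1, T_cell_2 and T_cell_4, and none was lower than in all of them, where 22.6% of the 8733 genes at 10 CPM or more (counts of a gene per 1e+06 counts of the library) were higher than in all of them and 25.2% lower. The clusters were built from these same genes, so that levels between clusters are a description and were not tested. The list was also drawn up with earlier results of these data known, so the count of its members is a description too. Levels are CPM of the counts summed per library and scaled by TMM (trimmed mean of M values) over the libraries compared. This shifts a gene's CPM from one comparison to another. Ccr7 of T_cell_3 in Hamburg cortex, for example, is at 1682 CPM between clusters and at 1467 CPM where medulla effects are compared. Levels can thus be set against each other only within a comparison. Differences are log2 CPM averaged over libraries, 9 for T_cell_1 and T_cell_2 and the 7 with at least 10 cells for T_cell_4.

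Ccr7 ranged over the 9 T_cell_3 libraries from 180 to 1682 CPM with a median of 561 CPM. Its highest library was at 95.3 CPM in T_cell_1, 103 CPM in T_cell_2 and 23.8 CPM in T_cell_4, so that no library of another T cluster reached the lowest of T_cell_3. The mean log2 difference was 4.55 to T_cell_1, 3.88 to T_cell_2 and 5.99 to T_cell_4. By facility, Ccr7 in T_cell_3 lay at 180, 286 and 345 CPM in cortex, OM and IM of Aachen, at 693, 561 and 559 CPM in Bonn and at 1682, 1336 and 1354 CPM in Hamburg. The facilities stood farther apart than the compartments of any of them, and Hamburg was highest.

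Lef1 had 415 to 848 CPM in T_cell_3 (median 703 CPM), while its highest library in the other clusters was at 120 CPM in T_cell_2. The log2 differences were 3.31, 3.17 and 5.71 to T_cell_1, T_cell_2 and T_cell_4. It was higher in T_cell_3 in every library in which the clusters were compared. Tcf7, the partner of Lef1, averaged 575 ± 229 CPM (SD, n = 9) against 133, 143 and 155 CPM, and S1pr1, the exit receptor, 293 ± 95.6 CPM against 59.8, 73.2 and 26.2 CPM. Klf2 was abundant in all clusters, at a mean of 3404 CPM in T_cell_3 and 1344, 1859 and 845 CPM in the others.

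Igfbp4, an insulin-like growth factor binding protein, separated the clusters most. It had 229 to 625 CPM in T_cell_3 with a median of 451 CPM, and a mean of 3.63, 8.48 and 3.51 CPM in T_cell_1, T_cell_2 and T_cell_4. Dapl1 had 197 to 665 CPM in T_cell_3 (median 338 CPM) and at most 52.9 CPM in any library of another T cluster. The chromatin organiser Satb1 averaged 386 CPM, Foxp1, a forkhead factor that holds T cells in quiescence, 380 CPM, and Bach2, a repressor of effector genes, 114 CPM. All of these were above the other clusters, Bach2 in 8 of 9 libraries against T_cell_2 and in every library in the other comparisons. The exception of the list was Il7r, which lay above T_cell_1 and T_cell_2 by 2.10 and 2.07 but not above T_cell_4, where the log2 difference was -0.10 and T_cell_3 was higher in 3 of 7 libraries.

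**Figure D1:**
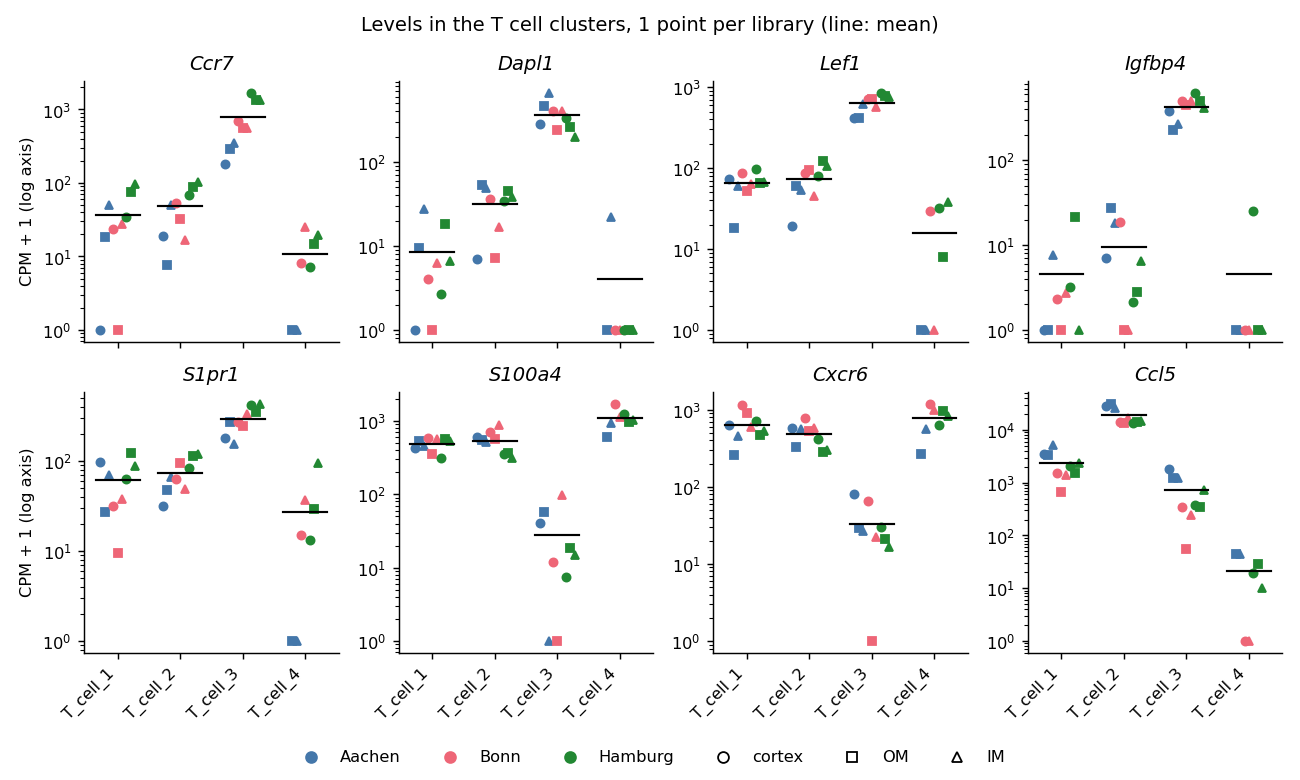
Levels of 8 genes in the numbered T cell clusters, as CPM + 1 on a log axis, with each point 1 library (colour for facility, shape for compartment) and a line at the mean. The T_cell_3 points of Ccr7 (180 to 1682 CPM), Dapl1 (197 to 665 CPM) and Lef1 (415 to 848 CPM) lie above all points of the other clusters, and those of S100a4 and Cxcr6 lie below them.

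Among the 15 genes that stood highest in T_cell_3 against the nearest of the other clusters were Igfbp4, Ccr7, Dapl1, Tdrp, Lef1, Actn1, Nsg2, Cmah, Tcf7, S1pr1, Rflnb, Cd55, Atp1b1 and Klf7. Of those named, 6 were on the naive list, which was drawn up with earlier results of these data known. The rule picks wide gaps, so that ranges without overlap, as for Ccr7, are favoured among these genes. Actn1, a crosslinker of actin filaments, had 114 to 336 CPM in T_cell_3 and no UMI in T_cell_4. Rflnb had no UMI in Aachen, in any cluster, and 198 to 334 CPM in the T_cell_3 libraries of Bonn and Hamburg. Cmah encodes an enzyme of sialic acid synthesis and averaged 160 CPM against 18.5, 34.9 and 3.65 CPM.

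Sequences upstream of these genes are shown for the most separating member, for the member with a forkhead match and for the gene of the KLF factor itself. RefSeq promoters were found for 9 of the 12 genes of the naive list, and Ccr7 and S1pr1 were among those without. The 250 bases before 1 annotated transcription start of each gene were searched on both strands. The letters were the KLF box CCNCNCCC, the FOXO forkhead core GTAAACA, the TCF and LEF core CTTTGA and the ETS core CCGGAAG. A gene can have other starts. The Tcf7 stretch holds an ATG with an open reading frame that runs to its end, and some of its KLF matches lie in that frame. The capitals mark matches to the KLF box in Igfbp4 (GRCm38.p6, chr11:99040994-99041243, plus strand) and Klf2 (chr8:72318812-72319061, plus strand), and in Dapl1 (chr2:59484403-59484652, plus strand) first the FOXO core and then the KLF box, where overlapping matches run together.
Igfbp4: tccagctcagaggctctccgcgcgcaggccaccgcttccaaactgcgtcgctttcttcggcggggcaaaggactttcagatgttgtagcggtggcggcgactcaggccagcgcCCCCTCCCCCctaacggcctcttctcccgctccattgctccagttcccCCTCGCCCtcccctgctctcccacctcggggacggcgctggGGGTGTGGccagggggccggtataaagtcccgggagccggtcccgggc
Klf2: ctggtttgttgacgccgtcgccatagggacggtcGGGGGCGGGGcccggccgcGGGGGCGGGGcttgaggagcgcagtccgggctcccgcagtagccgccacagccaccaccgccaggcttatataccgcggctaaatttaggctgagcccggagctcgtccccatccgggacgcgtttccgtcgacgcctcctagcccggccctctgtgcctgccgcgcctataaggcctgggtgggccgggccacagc
Dapl1: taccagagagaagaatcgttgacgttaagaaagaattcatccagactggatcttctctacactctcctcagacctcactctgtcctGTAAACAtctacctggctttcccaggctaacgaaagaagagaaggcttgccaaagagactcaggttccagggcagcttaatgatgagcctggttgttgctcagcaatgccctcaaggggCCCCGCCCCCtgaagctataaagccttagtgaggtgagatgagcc
The KLF box was present in 7 of the 9 promoters against 45.9% of 32851 mouse promoters of the same length. It was in 9 of 11 promoters found for the 15 highest genes, and in 7 of 13 found for the 15 genes lowest in T_cell_3, which are named below. The FOXO core was in 1 of 9, that of Dapl1, against 3.17% of all promoters, and the TCF and LEF core (13.8% of all promoters) and the ETS core (6.91%) were each in 1 of 9, both in Bach2. A match is a description of the letters and not of binding.

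Transcripts of tissue residence and effector function were low in T_cell_3. In the resident memory list 8 of 12 genes were lower in T_cell_3 than in all other T clusters and none was higher, where 25.2% of all 8733 genes were lower. Cxcr6, a chemokine receptor of tissue T cells, had 0 to 80.1 CPM in T_cell_3 with a median of 25.6 CPM, and 257 CPM or more in every library of the other clusters. S100a4, a calcium-binding protein of memory cells, had 0 to 96.8 CPM against at least 312 CPM elsewhere, and its mean log2 difference was -4.63, -4.74 and -5.63. Neither gene's range in T_cell_3 overlapped that of another cluster. Both are among the 15 lowest genes given below, which were picked for a wide gap, and that rule favours ranges without overlap. Itga1, the collagen-binding integrin chain, averaged 2.30 CPM against 70.6 and 81.5 CPM in T_cell_1 and T_cell_2, and was as low in T_cell_4 at 1.76 CPM. Rgs1, a brake on chemokine receptor signalling, averaged 141 CPM against 1437, 899 and 607 CPM. Cd69, which marks both residence and recent activation, showed no such gap: its mean was 494 ± 194 CPM in T_cell_3 against 605, 562 and 435 CPM.

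The 15 lowest genes by the same rule were S100a4, Cxcr6, S100a6, Fgl2, Pdcd1, Bhlhe40, Cish, Camk2n1, Serpina3g, Anxa2, Ccr2, Bcl2a1d, Nrp1, Acot7 and Ahnak. Pdcd1, the checkpoint receptor PD-1, averaged 0.85 CPM in T_cell_3 and had no UMI in most libraries, against 67.9, 94.5 and 94.0 CPM. Bhlhe40, a transcription factor of cytokine-producing T cells, had at most 45.2 CPM in T_cell_3 and averaged 371, 286 and 304 CPM elsewhere. The checkpoint list had 4 of 7 genes lower than in all other clusters, and the immediate early list, genes switched on within minutes of a stimulus or of tissue handling, 7 of 13. Over all 8733 genes the share was 25.2%, and in lists this short a few genes make the difference.

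Effector genes set T_cell_3 apart from T_cell_1 and T_cell_2 more than from T_cell_4. The 20 genes of the cytotoxic list had a median log2 difference of -2.20 to T_cell_1, -3.15 to T_cell_2 and 0.48 to T_cell_4, while all 8733 genes had -0.22, -0.19 and 0.35. Ccl5, a chemokine stored by memory CD8 cells, had 55.0 to 1842 CPM in T_cell_3 (median 373 CPM) against a mean of 19140 CPM in T_cell_2. Ifng, the gene of interferon gamma, averaged 36.3 CPM against 556 and 542 CPM in T_cell_1 and T_cell_2 and 29.4 CPM in T_cell_4. Granzyme B (Gzmb) averaged 2.66 CPM and granzyme A (Gzma) 3.0 CPM, against 271 and 576 CPM in T_cell_2. Klrg1, a receptor of short-lived effector cells, had no UMI in any T_cell_3 library. Cd44, the adhesion receptor that is raised after activation, averaged 39.2 ± 21.7 CPM against 169, 83.9 and 147 CPM.

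Markers of special T cell lineages were sparse in T_cell_3. The regulatory T cell factor Foxp3 averaged 7.87 CPM, with a UMI in 1.74% of cells (interval 1.03 to 2.73). Below all other clusters were 4 of the 9 measured regulatory genes, where 25.2% of all 8733 genes were. In a list this short that is a difference of few genes. Of the γδ T cell list 5 of 9 genes were lower than in all others, beside the same 25.2%. Cd163l1, a scavenger receptor gene of γδ cells, averaged 0.96 CPM against 324 CPM in T_cell_4. The proliferation gene Mki67 averaged 1.31 CPM in T_cell_3. The innate-like factor Zbtb16 averaged 0.71 CPM, against 36.2 CPM in T_cell_1 and 88.4 CPM in T_cell_4.

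T_cell_3 also had the largest share of ribosomal protein transcripts. The median cell gave 39.7% of its UMIs to ribosomal protein genes, against 21.0%, 24.1% and 23.3% in T_cell_1, T_cell_2 and T_cell_4, and 97 of 104 such genes were higher than in all other clusters. T_cell_3 was highest in each facility, with 46.2%, 40.5% and 36.8% in T_cell_3 of Aachen, Bonn and Hamburg. All 13 mitochondrial genes were higher as well. With ribosomal genes left out of the scaling, the log2 difference of Ccr7 to T_cell_1 was 4.57 and that of Igfbp4 5.96, as large as with them.

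Transcripts of other cell types were present too. Of the 1036 T_cell_3 cells, 573 held 2 or more UMIs of 31 genes of other types. When 6 genes that T cells also express were left out, 111 cells did. Of 8 measured B cell genes, 6 were higher in T_cell_3 than in all other T clusters, where 22.6% of all 8733 genes were. The summed level of the B cell list ran from 44.8 to 835 CPM over the T_cell_3 libraries. The macrophage list summed to 108 to 1283 CPM, with its highest values in OM and IM of Aachen. Umod and Aqp2 of the nephron, and the haemoglobin genes Hba-a1 and Hba-a2, had no UMI. The proximal tubule list, however, summed to 269 CPM in IM of Bonn and to at most 36.9 CPM in any other library. The endothelium and blood list summed to 14.9 to 120 CPM. Its mean of 71.2 CPM in T_cell_3 was above the 28.4, 19.2 and 28.7 CPM of T_cell_1, T_cell_2 and T_cell_4. B cells themselves carried Ccr7 in 26.8% of cells thinned to 500 UMIs, close to the 27.3% of T_cell_3, but Lef1 in 0.457% and Igfbp4 in 0.192%, against 25.1% and 12.4% in T_cell_3. Macrophages had a Ccr7 UMI in 0.350% of thinned cells. The part of B cell RNA in the Ccr7 level was not tested.

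Both main T cell lineages were found inside T_cell_3. A UMI of a CD8 coreceptor gene (Cd8a or Cd8b1) without Cd4 was seen in 490 cells (47.3%), a UMI of Cd4 alone in 195 cells (18.8%), both in 19 cells (1.83%) and neither in 332 cells (32.0%). With cells thinned to 500 UMIs, the shares were 22.8%, 4.5%, 0.0978% and 72.6% of 1023 cells. The thinned share with CD8 genes was 3.19% in T_cell_1, 56.7% in T_cell_2 and 0.240% in B cells, and the share with Cd4 alone 7.42% in T_cell_1 and 0.557% in T_cell_2. Macrophages, which can carry Cd4 themselves, had a Cd4 UMI in 1.24% of thinned cells. T_cell_3 thus lay between T_cell_1 and T_cell_2 on both measures.

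The level of Cd8b1, the beta chain of CD8, ran from 501 to 822 CPM in T_cell_3 (median 650 CPM), below the 875 CPM of the lowest T_cell_2 library. Cd8a ran from 172 to 313 CPM against at least 516 CPM in T_cell_2. The beta chain outweighed the alpha chain more in T_cell_3: it had 2.46, 2.67 and 3.41 Cd8b1 UMIs per Cd8a UMI in Aachen, Bonn and Hamburg, where T_cell_2 had 1.74, 1.34 and 1.81. Cd4 ran from 14.3 to 231 CPM, with its lowest values in Aachen, where only 4 cells carried Cd4 alone and 65 carried CD8 genes alone. In Bonn these numbers were 104 and 148, and in Hamburg 87 and 277.

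**Figure D2:**
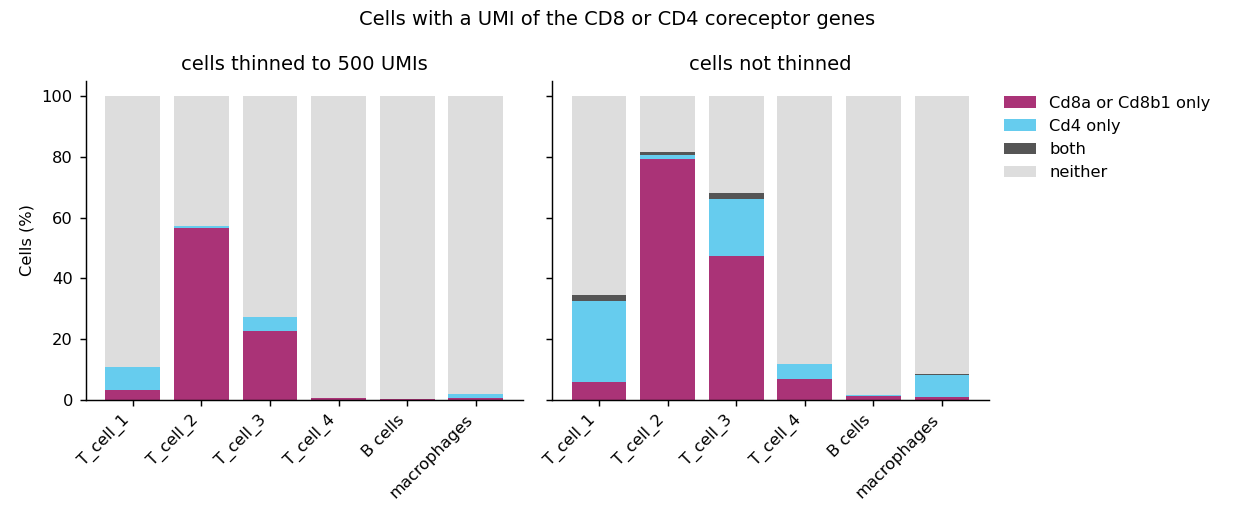
Share of cells (%) with a UMI of Cd8a or Cd8b1 only, of Cd4 only, of both or of neither, for each T cluster, B cells and macrophages, with cells thinned to 500 UMIs on the left and not thinned on the right. T_cell_3 has 22.8% CD8 only and 4.5% Cd4 only when thinned, and 47.3% and 18.8% when not thinned.

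The genes that separated the CD8-carrying from the Cd4-carrying cells of T_cell_3 were listed in Bonn and Hamburg, after their values were seen and without a test. Nkg7, a cytotoxic granule protein, had 623 and 396 CPM in CD8 cells and 22.6 and 19.5 CPM in Cd4 cells of Bonn and Hamburg. Ccl5 had 484 and 604 CPM against 15.8 and 89.3 CPM. Both genes were thus higher in the CD8 cells of either facility. Ly6c2, a surface antigen, was higher in CD8 cells by 4.85 and 4.11 on the log2 scale, Ccr9, a homing receptor of the gut and thymus, by 4.30 and 3.12, and Itgae, the integrin chain CD103, by 3.39 and 4.30.

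On the other side stood Ly6c1, with 287 and 187 CPM in Cd4 cells and 10.7 and 0 CPM in CD8 cells. Cd40lg, the helper ligand for B cells, had 147 and 112 CPM against 17.3 and 9.57 CPM, and Zbtb7b, the factor that fixes the CD4 fate, 20.3 and 14 CPM against 2.66 and 1.60 CPM. Foxp3 was also found on this side, at 13.6 and 27.9 CPM against 2.66 and 1.60 CPM. Igfbp4 was higher in Cd4 cells too, at 601 and 690 CPM against 232 and 259 CPM. Other genes of the naive list differed less: the log2 difference, CD8 minus Cd4, was 0.62 and 0.71 for Dapl1, -0.46 and -0.54 for Tcf7, -0.39 and -0.30 for Lef1, 0.01 and 0.04 for Il7r and -0.58 and 0.29 for Ccr7.

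T cell receptor genes were read in Bonn and Hamburg only. A UMI of a beta chain variable (Trbv) gene was found in 93.1% of 832 T_cell_3 cells, against 2.38% of B cells. Trgv2, the γ chain variable gene of the table, was found in 10 of the 832 cells (1.2%), against 15.2%, 16.9% and 30.4% of T_cell_1, T_cell_2 and T_cell_4 and 0.153% of B cells. When each cell was given its most abundant Trbv gene, the effective number of genes in use (the exponential of the Shannon entropy) was 17.4 in Bonn and 18.3 in Hamburg for T_cell_3. For T_cell_1 it was 12.1 and 13.4 and for T_cell_2 14.5 and 15.8. The most used gene of T_cell_3 was Trbv19 in Bonn with 10.5% of cells and Trbv13-2 in Hamburg with 11.3%, while Trbv13-2 took 31.2% and 25.1% in T_cell_1 and Trbv3 18.2% and 17% in T_cell_2. These are counts of genes and not of clones.

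The compartments were compared with facility as the replicate, which asks whether T_cell_3 differed between cortex and medulla. T_cell_3 made up 2.87%, 2.42% and 3.61% of all immune cells of Aachen in cortex, OM and IM, 7.31%, 3.70% and 2.78% of those of Bonn, and 7.02%, 5.42% and 8.95% of those of Hamburg. The means were 5.74% ± 2.49 in cortex, 3.85% ± 1.5 in OM and 5.11% ± 3.35 in IM (SD, n = 3). Medulla, the mean of OM and IM, minus cortex was 0.150 percentage points in Aachen, -4.07 in Bonn and 0.158 in Hamburg. The mean of -1.26 points had p = 0.370 in a two-sided exact permutation test within facilities, where 27 arrangements allow no p below 0.037. Bonn alone set its sign, and without it the mean was 0.154 points. In these data a share can move with the cell type itself or with any of the others.

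Among the cells of the numbered T clusters, T_cell_3 made up 9.46%, 20.1% and 11.1% in cortex, OM and IM of Aachen, 22.4%, 19.5% and 17.9% of Bonn, and 17.3%, 29.2% and 28.8% of Hamburg. The share was higher in medulla than in cortex by 6.16 points in Aachen and 11.7 in Hamburg and lower in Bonn (-3.73). The mean difference of 4.72 points had an exact permutation p of 0.333 (adjusted over both shares 0.370), and it was 1.22 points without Hamburg. Neither share differed by more than the spread between facilities.

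**Figure D3:**
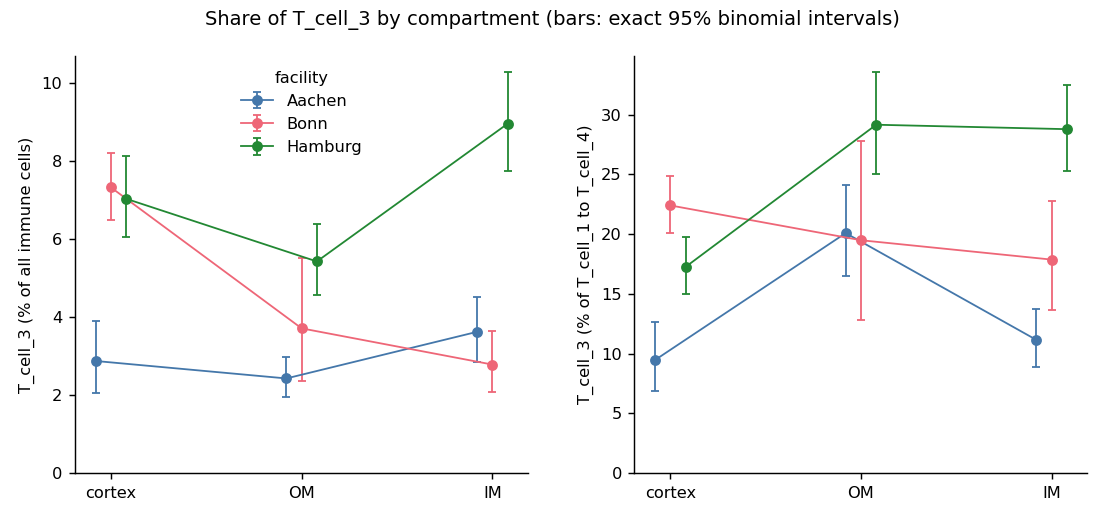
Share of T_cell_3 (%) among immune cells and among the numbered T clusters in cortex, OM and IM, with a line for each facility and the exact 95% binomial interval as bars. Bonn is highest in cortex on both measures (7.31% of immune cells there and 2.78% in IM), and Hamburg and Aachen are not.

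Within T_cell_3 no gene passed an adjusted p of 0.05 in any compartment contrast. edgeR's quasi-likelihood test with facility as a block, on 2866 genes, called 0 genes for medulla against cortex (0% of those tested), and 0 for each of OM and IM against cortex and for OM against IM. At an unadjusted p under 0.05 it gave, in this order, 101 (3.52%), 124 (4.33%), 84 (2.93%) and 111 genes (3.87%), and DESeq2 called 0 in each as well, with 15, 37, 6 and 23 genes at an unadjusted p under 0.05. The median standard error of the medulla log2 fold change was 0.22, and its quartiles were 0.17 and 0.26. Leaving out Aachen gave 1, 2, 2 and 1 called genes, which were Ly6d, Lyz2 and the immunoglobulin genes Igkv12-46 and Igkv6-25, leaving out Bonn gave 1, 1, 0 and 1 (Cd74 and Lyz2), and leaving out Hamburg 0, 1, 0 and 0 (Gm42418).

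The genes that marked the cluster were not called between compartments. All 12 genes of the naive list were tested for medulla against cortex, with 0 called and a median log2 fold change of -0.04 against -0.00 over all genes, in a range from -0.27 to 0.20. Lef1 had 433, 424 and 587 CPM in cortex, OM and IM of Aachen, 584, 680.3 and 502 CPM in Bonn and 700.3, 665 and 622 CPM in Hamburg. Cortex lay within or close to the range of medulla in each facility. Its log2 fold change was -0.04 ± 0.12 (SE), with a 95% interval from -0.30 to 0.22. Ccr7 had -0.16 ± 0.12 (interval -0.41 to 0.10) and Il7r -0.04 ± 0.12. The member farthest from 0 was Klf2 at -0.27 ± 0.13, which did not pass after adjustment (adjusted p 1.0).

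The lineage genes did not pass either. Cd8b1 had 742, 511 and 514 CPM in cortex, OM and IM of Aachen, 683, 606 and 526 CPM in Bonn and 663, 661 and 543 CPM in Hamburg, and was highest in cortex in all 3 facilities. Its log2 fold change of medulla against cortex was -0.26 ± 0.11 (adjusted p 1.0), and those of Cd8a and Cd4 were -0.20 and 0.35. The 13 immediate early genes had a median of 0.17, with 0 called and 11 above 0. The 8 heat shock genes had a median of -0.06 with 0 called, and the 18 tested T cell receptor signalling genes one of 0.02 with 0 called.

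The genes with the smallest p are given although they did not pass. For medulla against cortex they were Gem, Hspa1b, Ly6d, Tsc22d1 and Rpl13a-ps1. Gem, a small GTPase gene that is induced on T cell activation, had 41.2, 29.2 and 110 CPM in cortex, OM and IM of Aachen, 2.48, 0 and 9.56 CPM in Bonn and 52.0, 123 and 115 CPM in Hamburg. Its log2 fold change was 1.16 ± 0.29 (adjusted p 1.0). Cortex and medulla overlapped in Aachen and Bonn and stood apart in Hamburg, which held most of its UMIs. Hspa1b, an inducible HSP70 chaperone, had 309, 438 and 514 CPM in Aachen, 148, 372 and 167 CPM in Bonn and 1750, 2369 and 2446 CPM in Hamburg. It was lowest in cortex in each facility, with a log2 fold change of 0.56 ± 0.15 (adjusted p 1.0). Rpl13a-ps1, a ribosomal pseudogene whose reads may belong to its parent gene, was counted in Aachen only.

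The genes with the smallest p for OM against cortex were Lyz2, Trbv3, Ly6d, Naa15 and Rpl13a-ps1, and for OM against IM they were Lyz2, Trbv16, Tyrobp, Trbv3 and Cd79a. They thus held 2 T cell receptor variable genes beside genes of macrophages (Lyz2, Tyrobp) and B cells (Ly6d, Cd79a). Lyz2, the lysozyme of macrophages, had 41.2, 263 and 97.8 CPM in cortex, OM and IM of Aachen, 19.0, 0 and 0 CPM in Bonn and 0, 155 and 0 CPM in Hamburg. OM exceeded IM in Aachen and Hamburg, and not in Bonn. The log2 fold change was 3.09 ± 0.71 against cortex (adjusted p 0.542) and 4.03 ± 0.81 against IM (adjusted p 0.140). The macrophage list, which holds Lyz2 itself, summed to 358, 1283 and 1254 CPM in Aachen, 232, 173 and 187 CPM in Bonn and 108, 362 and 128 CPM in Hamburg. Like Lyz2, it was higher in OM than in cortex in Aachen and Hamburg and lower in Bonn. In Aachen the list was nearly as high in IM as in OM, and Lyz2 was not. Ly6d, an antigen of B cells and their precursors, had 20.6, 73.0 and 97.8 CPM in cortex, OM and IM of Aachen, 51.2, 10.6 and 57.3 CPM in Bonn and 69.4, 1.89 and 23.3 CPM in Hamburg. Its log2 fold change for OM against cortex was -2.53 ± 0.66 (adjusted p 0.542), with OM below cortex in Bonn and Hamburg and above it in Aachen. The B cell list summed to 44.8, 208 and 184 CPM in Aachen, 697, 122 and 835 CPM in Bonn and 288, 245 and 297 CPM in Hamburg. The part of other cells in these values was not tested.

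Trbv3 and Trbv16, variable segments of the T cell receptor beta chain, had no UMI in T_cell_3 of Aachen. Trbv3 had 158, 53.2 and 100.3 CPM in cortex, OM and IM of Bonn and 54.7, 20.8 and 93.1 CPM in Hamburg, and OM was lowest in both. Its log2 fold change was -1.64 ± 0.41 for OM against cortex (adjusted p 0.542) and -1.76 ± 0.42 for OM against IM (adjusted p 0.336). Trbv16 had 133, 351 and 105 CPM in Bonn and 205, 218 and 114 CPM in Hamburg, highest in OM in both, with 1.15 ± 0.27 for OM against IM (adjusted p 0.325). The OM library of Bonn rests on 23 cells. Naa15, a subunit of a protein N-terminal acetyltransferase, was higher in OM than in cortex in each facility, at 1.14 ± 0.30 (adjusted p 0.542).

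For IM against cortex the leading genes were Gem (1.22 ± 0.32), Fosl2 (0.80), Egr1 (0.81), Rrad (0.95) and Socs1 (-0.97), and none passed. Egr1, an immediate early transcription factor, had 82.5 and 110 CPM in cortex and IM of Aachen, 9.92 and 23.9 CPM in Bonn and 207 and 358 CPM in Hamburg. IM was above cortex in each facility. Socs1, a cytokine signalling inhibitor, was lower in IM in each, with 103 and 24.5 CPM in Aachen, 26.4 and 14.3 CPM in Bonn and 89.4 and 49.1 CPM in Hamburg.

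**Figure D4:**
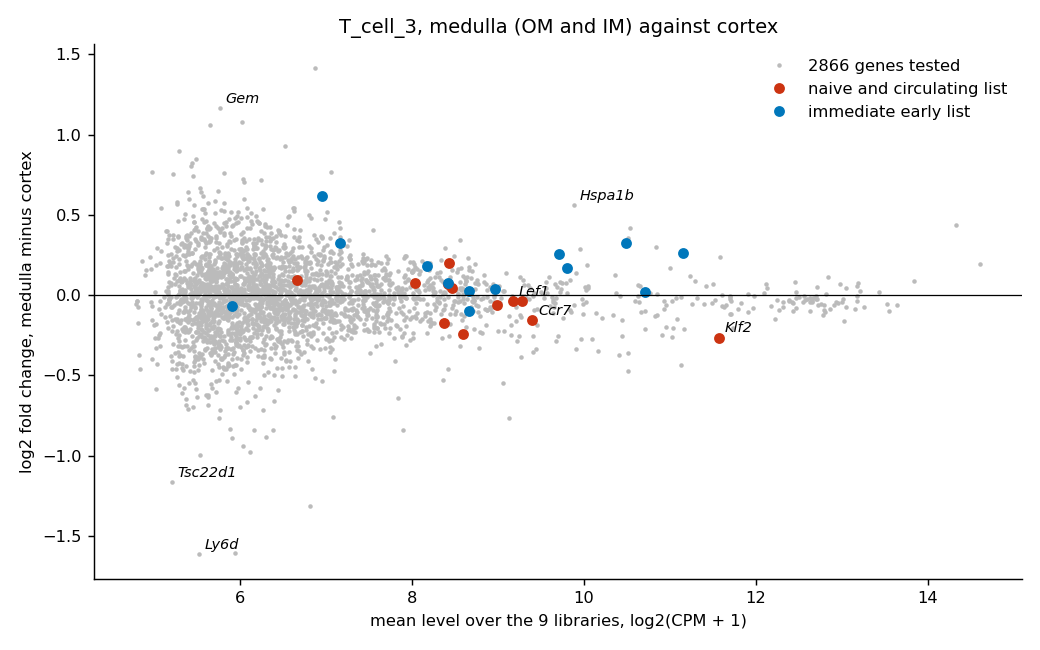
Log2 fold change of medulla against cortex in T_cell_3 (vertical axis) by mean level over the 9 libraries as log2(CPM + 1) (horizontal axis), with each grey point 1 of the 2866 genes tested. The 12 genes of the naive and circulating list (red) lie between -0.27 and 0.20, 11 of the 13 immediate early genes (blue) lie above 0, and no gene passed the test.

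The medulla effect of T_cell_3 was then set against that of T_cell_1, T_cell_2 and T_cell_4 summed in the same libraries, with the difference itself tested in edgeR (7825 genes, library as a block). It called 14 genes (0.179% of those tested), 7 with a higher and 7 with a lower effect in T_cell_3, and 350 genes (4.47%) had an unadjusted p under 0.05. The count was 39 without Aachen, 9 without Bonn and 4 without Hamburg. The other T clusters summed had 1 gene higher and 2 lower in medulla of 8087 in a fit of their own, T_cell_1 by itself had 9 higher and 4 lower of 6755, and T_cell_2 by itself had 0 higher and 1 lower of 5267. T_cell_2 made up 41.0%, 55.1% and 44.6% of the other T cells in cortex, OM and IM of Aachen, 30.9%, 42.1% and 32.6% for Bonn, and 30.8%, 44.6% and 53.2% for Hamburg. It was thus a larger part of the other T cells in medulla in each facility.

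Cd8b1 and Ccl5, both transcripts of CD8 T cells, had a lower medulla effect in T_cell_3 than in the other T clusters. Cd8b1 had 329, 424 and 507 CPM in cortex, OM and IM of the other T clusters of Hamburg, 321, 330 and 393 CPM in Bonn and 738, 799 and 669 CPM in Aachen. The log2 difference of the medulla effects was -0.57 ± 0.13 (adjusted p 0.00760), lower in T_cell_3 in 3 of 3 facilities. Ccl5 had a difference of -0.60 ± 0.12 (adjusted p 0.000751), also in 3 of 3 facilities, with T_cell_3 at 1719, 1200.3 and 1217 CPM in Aachen, 304, 52.9 and 223 CPM in Bonn and 326, 308 and 627 CPM in Hamburg. By facility the difference was -0.78 in Aachen, -1.75 in Bonn and only -0.10 in Hamburg. In Hamburg Ccl5 was higher in medulla by 0.43 in T_cell_3 and by 0.53 in the other T clusters. Neither gene was called against T_cell_1, T_cell_2 or T_cell_4 alone. Without Bonn neither was called, and without Hamburg Ccl5 was called and Cd8b1 was not.

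Ly6c1, which marked the Cd4 cells of T_cell_3, differed by 1.22 ± 0.27 (adjusted p 0.00760, 3 of 3 facilities), and was not called against any of the 3 clusters alone, nor without Bonn or without Hamburg. In T_cell_3 it had 37.4, 27.6 and 112 CPM in cortex, OM and IM of Aachen, 127, 243 and 124 CPM in Bonn and 52.1, 64.8 and 102 CPM in Hamburg. Ccr7 and Il7r differed by -0.80 ± 0.19 (adjusted p 0.0164) and -0.66 ± 0.14 (adjusted p 0.00122), each in 2 of 3 facilities. Both were called against T_cell_1 alone and not against T_cell_2 or T_cell_4 alone. Neither was called without Hamburg, and Il7r was not called without Bonn. Satb1, another gene of the naive list, differed in the other direction, by 0.66 ± 0.17 (adjusted p 0.0484). Satb1 was also called against T_cell_1 alone, and not against T_cell_2 or T_cell_4 alone, nor without Bonn or without Hamburg. For Ccr7 the effect in the other T clusters was 0.55 ± 0.27, at 7.33 to 80.6 CPM, and in T_cell_3 it was -0.16 ± 0.12. The other T clusters thus carried Ccr7 at a small fraction of the T_cell_3 level in every compartment.

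**Figure D5:**
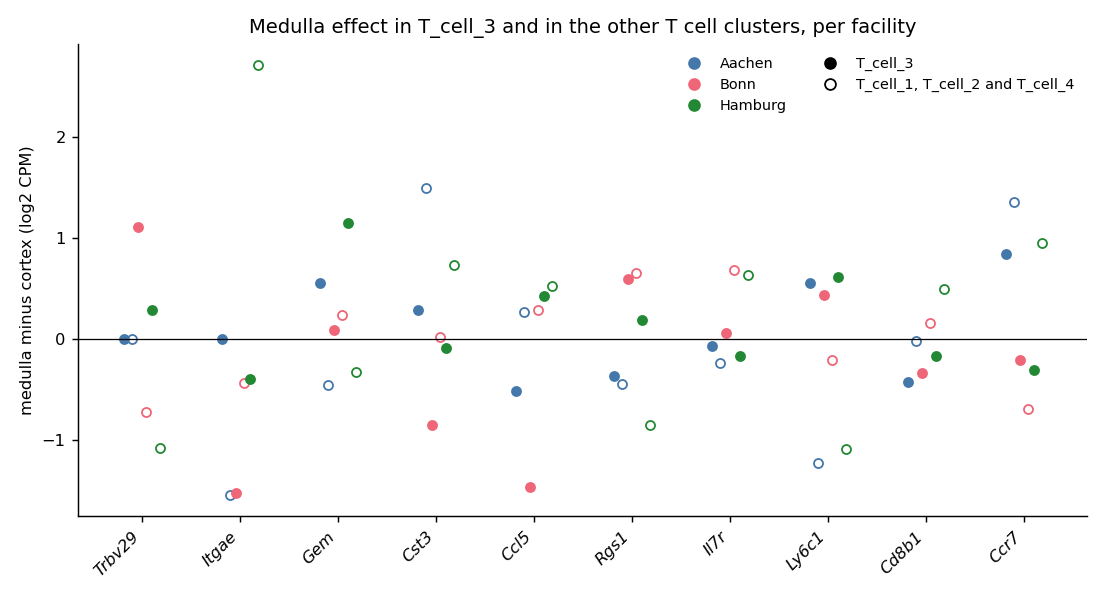
Medulla minus cortex in log2 CPM, in T_cell_3 (filled) and in the other T clusters summed (open), for the 10 genes with the smallest adjusted p of the difference, with a point for each facility. Cd8b1, Ccl5 and Cst3 lie lower and Ly6c1 higher in T_cell_3 in all 3 facilities, but the difference of Ccl5 in Hamburg is only -0.10.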

How the data were processed

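Single-cell RNA-seq counts were taken from the 1 table the authors deposited, which holds 32886 genes, the cluster, the compartment and the facility of each cell. The values are expected counts of UMIs as deposited by the authors, made with Cell Ranger on mm10 and clustered in Seurat per the submitters' processing notes. They were whole numbers in Aachen and Bonn, but only 0.118% were whole in Hamburg, so sums per library were rounded. The step that gave the Hamburg values their fractions is not stated in the sources used here. Its effect on the levels of genes in Hamburg was not tested.

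Cells of each cluster were summed per library (9 libraries, at least 10 cells each). Compartments were compared in edgeR 4.0.16 (filterByExpr, TMM, glmQLFit, glmQLFTest, facility as block, Benjamini-Hochberg adjustment, threshold 0.05). DESeq2 1.42.0 was an alternative. The scripts were tested on simulated data. Facility paired the libraries: deviations from compartment means correlated at 0.688 to 0.821 within facilities (9 pairs) and at -0.728 to 0.398 between them (18 pairs). Shares were tested by exact permutation, and shares of cells carry exact 95% binomial intervals. Cells were thinned to 500 UMIs where depth could set a share, and cells with fewer UMIs were left out there. No doublet caller was run. Instead, 573 T_cell_3 cells with 2 or more UMIs of 31 other-type genes were removed as an alternative, or 111 cells when 6 genes that T cells express were left out.

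Counts over lists cover all their members, and 1 gene of the naive list is not reported here. The members and gene lists were chosen with earlier results of these data known. Named genes were the members of the lists, the 15 highest and 15 lowest against the nearest other T cluster among genes at 50 CPM or more, the 5 with the smallest p where fewer passed, and up to 10 of the difference of effects.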

Additional observations from a re-analysis of the deposited data

Results flagged for a closer look

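For 10 genes the change from cortex to medulla in T_cell_3 differed from the change in T_cell_1, T_cell_2 and T_cell_4 summed, by edgeR's test of that difference over 7825 genes. On the log2 scale the difference, T_cell_3 minus the others, was higher for Trbv29 (1.73 ± 0.30 SE, adjusted p 6.53e-05), Gem (1.45 ± 0.28, adjusted p 0.000751), Ly6c1 (1.22 ± 0.27, adjusted p 0.00760) and Rgs1 (0.92 ± 0.19, adjusted p 0.00122). It was lower for Itgae (-3.84 ± 0.69, adjusted p 8.28e-05), Cst3 (-1.01 ± 0.20, adjusted p 0.000751), Ccr7 (-0.80 ± 0.19, adjusted p 0.0164), Il7r (-0.66 ± 0.14, adjusted p 0.00122), Ccl5 (-0.60 ± 0.12, adjusted p 0.000751) and Cd8b1 (-0.57 ± 0.13, adjusted p 0.00760).

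The direction was shared by 3 of 3 facilities for Cst3, Ccl5, Ly6c1 and Cd8b1, and by 2 for the other 6 genes. Trbv29, a T cell receptor variable gene with no UMI in Aachen, had 41.0, 63.5 and 129 CPM in cortex, OM and IM of T_cell_3 in Bonn and 46.5, 60.9 and 54.4 CPM in Hamburg. In the other T clusters it had 105, 37.4 and 105 CPM in Bonn and 126, 31.3 and 109 CPM in Hamburg, so that OM stood lowest there in both facilities. Itgae had no UMI in T_cell_3 of Aachen and at most 40.9 CPM elsewhere in T_cell_3, and 0 to 23.0 CPM in the other T clusters. Its difference was 1.54 in Aachen, -1.08 in Bonn and -3.10 in Hamburg. edgeR shares its estimate of spread between genes, so that a small p can stand beside facilities that disagree. Cst3, a protease inhibitor abundant in macrophages and dendritic cells, had 523, 662 and 621 CPM in T_cell_3 of Aachen and 579, 2336 and 1143 CPM in the other T clusters of that facility. The part of macrophage RNA in Cst3 was not tested.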

How the results depend on the processing

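The count of 0 genes called in T_cell_3 held under DESeq2, without the replicate block, with thinned cells, without ribosomal protein genes and after removal of cells with UMIs of other types. Some of these settings had little room to call a gene. With thinned cells 539 genes were tested and after removal of cells 1106, against 2866 in the main fit. Without the block 6, 7, 1 and 4 genes had an unadjusted p under 0.05 in edgeR. Without a filter on low counts (14277 genes) 5 genes were called for medulla against cortex, 9 for OM against cortex, 5 for IM against cortex and 10 for OM against IM. Among them were transcripts of B cells (immunoglobulin genes, Ly6d), macrophages (Lyz2), neutrophils (S100a9) and the proximal tubule (Kap), the T cell genes Trbv3, Trbv16 and Ccl5, and Gm42418. With at least 30 cells per library 0, 1, 1 and 1 genes were called. Leaving out 1 facility gave 0 to 1, 1 to 2, 0 to 2 and 0 to 1, and the genes were Ly6d without Aachen, Cd74 without Bonn, Lyz2 without Aachen and without Bonn, Gm42418 without Hamburg, and Igkv12-46 and Igkv6-25 without Aachen.

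Rpl13a-ps1 reversed under DESeq2, to 0.67 for medulla and 0.91 for OM against cortex. The 14 genes with a different medulla effect became 4 to 39 when 1 facility was left out (39 without Aachen, 14 of them shared, 9 without Bonn with 5 shared, 4 without Hamburg with 1 shared), 39 against T_cell_1 alone (9 shared), 4 against T_cell_2 alone (3 shared) and 8 against T_cell_4 alone (1 shared). The cause was not tested. The share among immune cells ran from -1.96 to 0.154 points without 1 facility, and that among T cells from 1.22 to 8.95. Shares of cells with a UMI depend on depth: Cd4 was at 4.59% at 500 UMIs, 1.64% at 300 UMIs and 20.7% without thinning.

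Bonn OM (23 cells) and Aachen cortex (40 cells, 67024 UMIs) limit the precision. The median standard error of a log2 fold change of medulla against cortex was 0.22, and differences well above it, such as 1.16 for Gem, also did not pass.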

Other observations

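Genes of the early response moved with the facility more than with the compartment in T_cell_3, as the 2866 tested genes did in general. The 13 immediate early genes, which respond within minutes to stimulation and to tissue digestion, summed to 1774 to 2961 CPM in the 3 libraries of Bonn, 6505 to 9385 CPM in Aachen and 13585 to 15110 CPM in Hamburg. The 8 heat shock genes summed to 3733 to 3978 CPM in Bonn, 7075 to 9579 CPM in Aachen and 14773 to 14954 CPM in Hamburg. Neither range overlapped between facilities. Klf2, which is also quick to respond, had the same order, at 1009.9 to 1477 CPM in Bonn, 2030.1 to 4164 CPM in Aachen and 4231 to 5634 CPM in Hamburg. Ranges without overlap between facilities were not particular to these lists. The summed ribosomal protein genes and the summed mitochondrial genes had them too, while the hypoxia and glycolysis list overlapped between Bonn and Hamburg.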
